A study of Mus musculus with 36 samples.

Results

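Skeletal muscle pulls on bone through tendon, and a dissected whole muscle carries some of that tendon with it. The data describe 8 genes that mark tendon cells and the matrix they make, Tnmd, Scx, Mkx, Fmod, Comp, Chad, Thbs4 and Kera, in bulk RNA-seq of whole tibialis anterior (TA) and soleus. The 8 genes were chosen by symbol, and each matched 1 of the 51912 Ensembl IDs in both deposited count tables. The TA is a fast and the soleus a slow hindlimb muscle. All mice were 3-month-old males of the C57BL/6 strain. WT mice carried the intact Musk gene, and ∆Ig3-MuSK mice were homozygous for a CRISPR-made Musk allele without the exons that encode the Ig3 domain, which binds BMP, in every cell of the animal. There were 9 libraries in each of the 4 groups, WT soleus, ∆Ig3-MuSK soleus, WT TA and ∆Ig3-MuSK TA, and 36 in all. Total counts ran from 43492062 to 78660422 per library. Values are CPM, a gene's counts relative to its library's total, adjusted with TMM factors over the 36 libraries.

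Tendon is made by tenocytes, fibroblast-like cells that lay down aligned collagen fibrils and the small proteoglycans and glycoproteins that space and cross-bridge them. Scleraxis, the product of Scx, is a transcription factor of the tendon lineage, and it acts through E-box sequences. Mohawk (Mkx) is a homeobox factor that maintains tendon collagen expression. Tenomodulin (Tnmd) is a membrane protein found mainly in tendon and ligament and is a known target of scleraxis. Fibromodulin (Fmod) and keratocan (Kera) are small leucine-rich proteoglycans that bind collagen fibrils, and chondroadherin (Chad) is a leucine-rich protein of cartilage and tendon. Comp and Thbs4 encode thrombospondin-family glycoproteins, and thrombospondin 4 is also found where muscle fibres anchor in tendon.

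The slow-fibre genes Myh7, Tnnt1, Tnni1 and Myl2 summed to 11000 to 16800 CPM in the soleus libraries and to 6.6 to 64.6 CPM in the TA, as the muscle labels state. Musk, the targeted gene, had 12.5 to 18.4 CPM in WT soleus, 8.07 to 17.5 CPM in ∆Ig3-MuSK soleus, and 2.86 to 5.58 and 2.62 to 4.01 CPM in WT and ∆Ig3-MuSK TA. Its log2 fold change in ∆Ig3-MuSK was -0.44 in the soleus (adjusted p = 0.0978) and -0.46 in the TA (adjusted p = 0.135), and its gene-level counts cannot show which exons were read. All 8 tendon genes were read in all 4 groups, with 0 counts in a single library for 1 gene, Mkx. In bulk muscle, fewer tendon cells and less tendon RNA per cell cannot be told apart. 1 library stood apart before any comparison. ∆Ig3-MuSK soleus replicate 8 was the lowest of its group for all 8 genes, and the fold changes that rest on it are given with and without it. This library was picked out after the values of these same genes were seen.

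The start-site upstream sequences of the genes that varied together are shown for the letters that scleraxis-type factors read, the E-box CANNTG. They cover 220 bases, from 250 to 31 bases before the start site, as RefSeq gives it on GRCm38.p6. They are the Tnmd window at chrX:133850758-133850977 on the plus strand, Fmod at chr1:134037004-134037223 on the plus strand, Chad at chr11:94564797-94565016 on the plus strand and Thbs4 at chr13:92794849-92795068 on the minus strand, each written 5′ to 3′ with E-boxes in capitals.
Tnmd: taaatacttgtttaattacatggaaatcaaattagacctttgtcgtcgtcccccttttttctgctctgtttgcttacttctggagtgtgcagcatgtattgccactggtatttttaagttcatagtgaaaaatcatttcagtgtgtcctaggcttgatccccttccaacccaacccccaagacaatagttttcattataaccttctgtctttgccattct
Fmod: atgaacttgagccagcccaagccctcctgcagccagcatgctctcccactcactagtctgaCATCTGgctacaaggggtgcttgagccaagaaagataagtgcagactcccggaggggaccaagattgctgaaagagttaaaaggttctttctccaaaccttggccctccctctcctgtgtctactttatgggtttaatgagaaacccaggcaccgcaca
Chad: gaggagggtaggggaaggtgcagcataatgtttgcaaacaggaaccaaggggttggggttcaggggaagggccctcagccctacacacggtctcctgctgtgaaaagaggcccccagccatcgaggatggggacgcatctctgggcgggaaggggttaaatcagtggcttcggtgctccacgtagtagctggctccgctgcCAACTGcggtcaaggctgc
Thbs4: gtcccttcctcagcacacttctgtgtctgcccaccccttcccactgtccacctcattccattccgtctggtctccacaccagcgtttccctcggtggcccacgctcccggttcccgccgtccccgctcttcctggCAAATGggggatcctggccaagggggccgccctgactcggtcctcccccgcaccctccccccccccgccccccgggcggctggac
The CANNTG motif reads the same on both strands. It stood once in the Fmod, Chad and Thbs4 windows and 0 times in the Tnmd window. Of 27025 genes with a window of this length, 62.0% held at least 1. The RefSeq table held 5 of the 8 genes. Scx, Mkx and Comp are named only, and the Kera window, which lies inside the annotated gene, is not printed.

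In the WT soleus, Fmod and Thbs4 had the highest levels per length of exon, and Kera and Mkx the lowest. The medians were 61.8 CPM per kb for Fmod, 57.7 for Thbs4, 18 for Chad, 16 for Comp, 14.8 for Tnmd, 8.19 for Scx, 2.0 for Kera and 0.819 for Mkx. In the WT TA the median level per kb was 25.1 for Thbs4, 17.5 for Fmod, 4.2 for Tnmd, 3.0 for Scx, 2.17 for Kera, 1.86 for Chad, 1.59 for Comp and 0.182 for Mkx. Chad and Comp stood above Tnmd in the WT soleus and below it in the WT TA.

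The gene bodies lie on 8 chromosomes of GRCm38. Tnmd spans chrX:133850980-133865577 on the plus strand, Fmod chr1:134037254-134048277 on the plus strand and Comp chr8:70373558-70382066 on the plus strand. Thbs4 spans chr13:92751590-92794818 on the minus strand, Kera chr10:97606879-97613692 on the plus strand and Mkx chr18:6934518-7004780 on the minus strand. Scx, at chr15:76457452-76459458 on the plus strand, lies wholly within the span of Bop1, a ribosome biogenesis gene on the opposite strand, with 0 bases of shared exon. Chad, at chr11:94565047-94569127 on the plus strand, lies in the same way within Acsf2, an acyl-CoA synthetase gene, also with 0 bases of shared exon. The libraries were not stranded, so unspliced RNA of Bop1 or Acsf2 would count for Scx or Chad. Mkx shares 201 of its 4095 exon bases with a transcript on its own strand that has no row in the tables.

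The first comparison asks how tendon genes differ between a slow and a fast muscle. In WT mice, 7 of the 8 genes were higher in the soleus than in the TA, against 30.2% of all genes tested that were called higher, with edgeR's quasi-likelihood test. In ∆Ig3-MuSK mice it was 7 of 8 again, against 28.5%. Muscle is tied here to the count table, so a difference between muscles and between the tables cannot be told apart.

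Comp and Chad differed most. Comp ran from 20.3 through a median of 47.6 to 62.2 CPM in WT soleus and from 2.91 through 4.7 to 9.9 CPM in WT TA. Chad ran from 16.2 through 30.3 to 44.3 CPM in WT soleus and from 2.47 through 3.13 to 6.37 CPM in WT TA. Every soleus library lay above every TA library for both genes. The log2 fold change was 3.03 (SE 0.37, adjusted p = 3.94e-09) for Comp and 2.97 (SE 0.37, adjusted p = 4.6e-09) for Chad. These are 8.21-fold and 7.87-fold differences of the group means.

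The lineage genes differed by less. Tnmd ran from 10.8 through 20 to 32.1 CPM in WT soleus and from 4.42 through 5.69 to 8.91 CPM in WT TA, a log2 fold change of 1.68 (SE 0.31, adjusted p = 1.05e-05). Scx ran from 12.3 through 16.4 to 27.0 CPM and from 4.91 through 6.01 to 11.2 CPM, a log2 fold change of 1.32 (SE 0.16, adjusted p = 2.79e-09). Mkx ran from 1.74 through 3.35 to 5.27 CPM and from 0.668 through 0.745 to 1.32 CPM, a log2 fold change of 1.89 (SE 0.32, adjusted p = 2.37e-06). The WT soleus and WT TA ranges of these lineage genes did not overlap.

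Fmod and Thbs4 carried the most counts. Fmod ran from 98.2 through 204 to 284 CPM in WT soleus and from 46.5 through 57.9 to 90.3 CPM in WT TA, with no overlap and a log2 fold change of 1.72 (SE 0.35, adjusted p = 4.37e-05). Thbs4 ran from 116 through 190 to 331 CPM in WT soleus and from 64.5 through 82.5 to 124 CPM in WT TA, where 1 TA library reached into the soleus range, and its log2 fold change was 1.21 (SE 0.26, adjusted p = 0.000115). Kera did not pass the test. It ran from 1.96 through 4.56 to 7.86 CPM in WT soleus and from 3.67 through 4.96 to 7.43 CPM in WT TA, with a log2 fold change of -0.09 (SE 0.31, adjusted p = 0.799). In all, 6 of 8 genes had WT soleus ranges wholly above the WT TA range, against 14.6% of all genes.

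In ∆Ig3-MuSK mice the log2 fold changes between soleus and TA were 1.72 for Tnmd, 1.29 for Scx, 1.43 for Mkx, 1.24 for Fmod, 2.29 for Comp, 2.11 for Chad, 0.85 for Thbs4 and -0.09 for Kera. Without soleus replicate 8 they were 1.88 for Tnmd, 1.35 for Scx, 1.59 for Mkx, 1.41 for Fmod, 2.46 for Comp, 2.27 for Chad, 1.00 for Thbs4 and 0.07 for Kera, and again 7 of 8 were called. The calls of Mkx and Fmod depended on the method. Mkx was not called with limma-voom (adjusted p = 0.0623), and with the label number as a block neither Mkx (adjusted p = 0.151) nor Fmod (adjusted p = 0.111) was, which left 5 of 8. The soleus and TA ranges of all 8 genes overlapped. Replicate 8 of the soleus lay below every ∆Ig3-MuSK TA library for all genes but Scx. Without that library 6 of the 8 genes, all but Thbs4 and Kera, had soleus ranges wholly above the TA range, against 15.9% of all genes without the same library. That library was picked out by its low values of these same genes, so the 15.9% is not a like reference. With all libraries it was 0 of 8, against 14.8%.

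**Figure D1:**
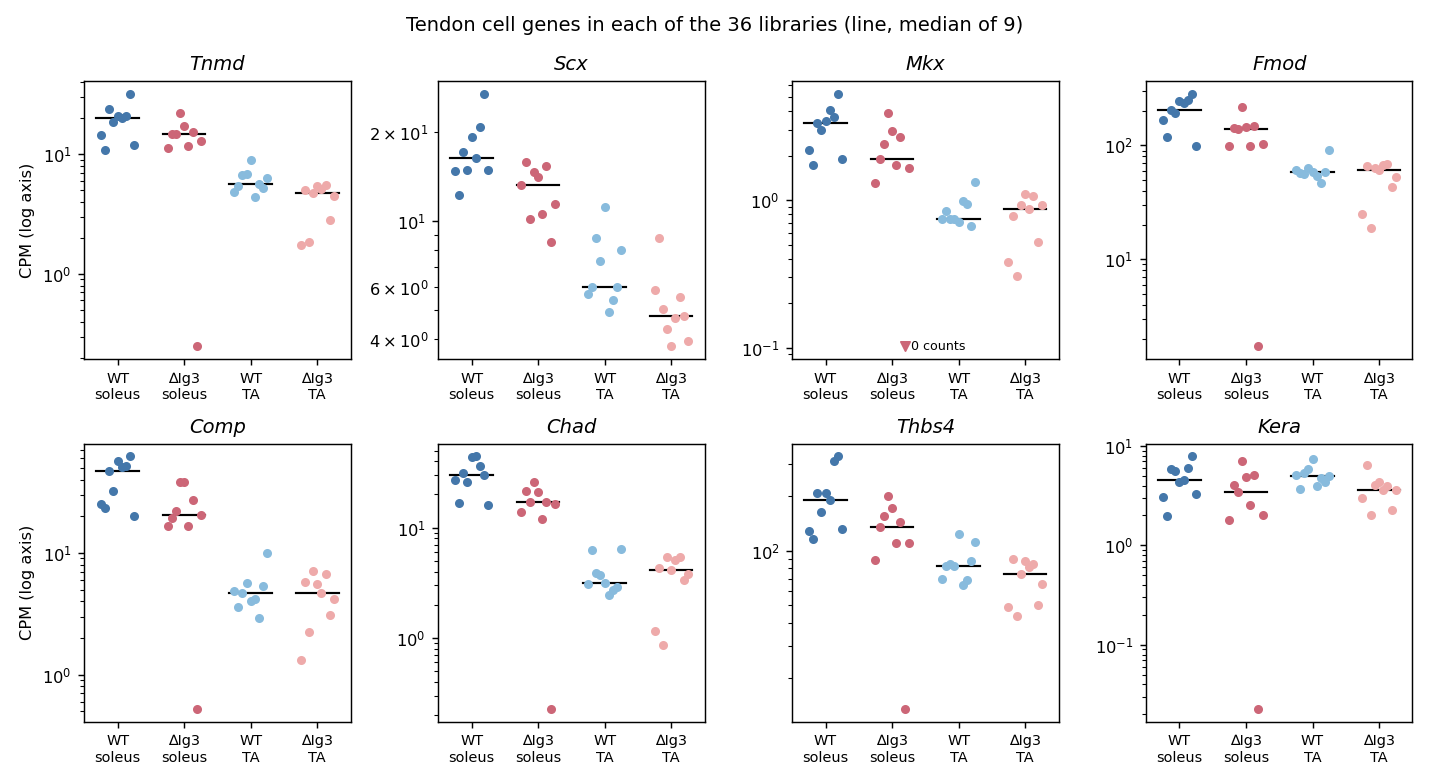
CPM of the 8 tendon cell genes, on a log axis, in each of the 36 libraries, with 9 libraries per group in replicate order, and the line at the group median. The soleus points lie above the TA points for Comp, Chad, Fmod, Mkx, Scx and Tnmd in WT, the Kera ranges of the muscles overlap, and 1 ∆Ig3-MuSK soleus library falls far below its group in 7 of 8 panels.

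The second comparison asks whether removing the Ig3 domain of MuSK goes with a different level of tendon genes within each muscle. In the soleus, all 8 genes had a negative log2 fold change in ∆Ig3-MuSK, but 0 of 8 passed edgeR's quasi-likelihood test, against 0.586% of all genes called lower. At an unadjusted p under 0.05, 4 of 8 were lower (Scx, Comp, Chad and Thbs4), against 10.1% of all genes. This count ran from 2 to 5 when 1 library was left out, with 2 without WT soleus replicate 5, without WT soleus replicate 8 or without ∆Ig3-MuSK soleus replicate 6. It was 2 with DESeq2, with robust estimation and with the replicate block, and 6 in the single fit over 36 libraries. The median log2 fold change of the 8 genes was -0.65, while that of all genes tested was -0.002. The 8 genes varied together among libraries (shown further on), so they are not 8 independent observations.

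Scx came nearest to the threshold. Among libraries, Scx followed the other tendon genes less closely than they followed each other (shown further on). In the soleus it ran from 12.3 to 27.0 CPM in WT and from 8.49 through 13.3 to 15.9 CPM in ∆Ig3-MuSK, with a log2 fold change of -0.48 (SE 0.14, adjusted p = 0.0898). All 9 ∆Ig3-MuSK libraries lay under the WT median, and 4 lay under the lowest WT library. DESeq2 called Scx lower (adjusted p = 0.0313), as did limma-voom with sample weights (adjusted p = 0.0328). DESeq2 called lower 1.55% of the genes to which it gave an adjusted p, and limma-voom 2.01% of all genes tested. Without ∆Ig3-MuSK replicate 8 the log2 fold change of Scx in edgeR was -0.42 (adjusted p = 0.128). In the TA the levels of Scx ran from 4.91 to 11.2 CPM in WT and from 3.77 through 4.78 to 8.8 CPM in ∆Ig3-MuSK, with a log2 fold change of -0.43 (SE 0.16, adjusted p = 0.163).

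The matrix genes Chad and Comp had larger differences with larger errors. In ∆Ig3-MuSK soleus, Chad ran from 0.226 through 17.1 to 25.9 CPM, with all 9 libraries under the WT median of 30.3 CPM and a log2 fold change of -0.91 (SE 0.36, adjusted p = 0.184). Comp ran from 0.52 through 20.6 to 38.6 CPM, also with 9 of 9 under the WT median of 47.6 CPM, and its log2 fold change was -0.89 (SE 0.39, adjusted p = 0.219). Without replicate 8 the soleus log2 fold change of Chad was -0.75 (SE 0.19, adjusted p = 0.0711) and that of Comp was -0.73 (SE 0.24, adjusted p = 0.136), so leaving out the lowest library brought the fold changes nearer to 0 and shrank their errors.

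Thbs4 in ∆Ig3-MuSK soleus ran from 13.4 through 135 to 200 CPM, with a log2 fold change of -0.67 (SE 0.32, adjusted p = 0.265). Fmod ran from 1.72 through 138 to 216 CPM, with a log2 fold change of -0.73 (SE 0.42, adjusted p = 0.366). Tnmd ran from 0.248 through 14.8 to 22.3 CPM, with a log2 fold change of -0.53 (SE 0.35, adjusted p = 0.442). The WT and ∆Ig3-MuSK soleus ranges overlapped for these genes and for all 8. Mkx ran from 0 through 1.91 to 3.92 CPM, with a log2 fold change of -0.63 (SE 0.36, adjusted p = 0.366). Kera ran from 0.0226 through 3.48 to 7.11 CPM, with a log2 fold change of -0.46 (SE 0.39, adjusted p = 0.552). Without replicate 8 the log2 fold changes were -0.52 for Thbs4, -0.56 for Fmod, -0.36 for Tnmd, -0.46 for Mkx and -0.30 for Kera. The median log2 fold change of the 8 genes was then -0.49, and 5 of 8 were lower at an unadjusted p under 0.05 (Scx, Fmod, Comp, Chad and Thbs4), against 9.31% of all genes. Again 0 of 8 passed after adjustment.

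In the TA, 0 of 8 genes passed edgeR's quasi-likelihood test, against 0.0% of all genes called lower. DESeq2 and limma-voom also called 0 of 8. DESeq2 called lower 0.322% of the genes to which it gave an adjusted p, and limma-voom 0.149% of all genes tested. At an unadjusted p under 0.05, 3 of 8 were lower (Tnmd, Scx and Kera), against 12.0% of all genes. Tnmd ran from 1.76 through 4.77 to 5.49 CPM in ∆Ig3-MuSK TA, where all 9 libraries lay under the WT median of 5.69 CPM, with a log2 fold change of -0.56 (SE 0.20, adjusted p = 0.163). Kera ran from 2.04 through 3.62 to 6.43 CPM, with 8 of 9 under the WT median and a log2 fold change of -0.45 (SE 0.17, adjusted p = 0.165). The matrix genes that differed most in the soleus differed least here. Chad ran from 0.866 through 4.16 to 5.45 CPM in ∆Ig3-MuSK TA, with a log2 fold change of -0.04 (SE 0.29, adjusted p = 0.948). Comp ran from 1.31 through 4.67 to 7.08 CPM, with a log2 fold change of -0.15 (SE 0.26, adjusted p = 0.737). Thbs4 had a log2 fold change of -0.31, Fmod of -0.23 and Mkx of -0.16 in the TA, with adjusted p-values of 0.214, 0.47 and 0.656.

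A pair of ∆Ig3-MuSK TA libraries, replicates 1 and 3, each had 5 of the 8 genes under 50% of the median of the other libraries of their group. Without that pair, which was chosen after its values were seen, the median log2 fold change of the 8 genes in the TA went from -0.27 to -0.09. With all libraries and limma-voom it was -0.16. In edgeR without the pair, Chad was at 0.24, Comp at 0.08 and Mkx at 0.05, while Scx stayed at -0.45 and Tnmd was at -0.34.

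An interaction term tested whether the genotype difference was unequal in soleus and TA. For 0 of 8 genes did it pass edgeR's quasi-likelihood test, against 0.0% of all genes, and 0 of 8 had an unadjusted p under 0.05, against 24.9% of all genes. DESeq2 called 0 of the 6 genes to which it gave an adjusted p, against 8.41% of all genes that it gave one. With limma-voom 0 of 8 were called, against 4.6% of all genes tested. The interaction was -0.87 (SE 0.49, adjusted p = 0.263) for Chad and -0.73 (SE 0.50, adjusted p = 0.352) for Comp on the log2 scale, and -0.03 (SE 0.22) for Scx. Without ∆Ig3-MuSK soleus replicate 8 it was -0.70 (SE 0.36, adjusted p = 0.227) for Chad, -0.57 (SE 0.37, adjusted p = 0.346) for Comp and 0.03 (SE 0.22) for Scx, and the median over the 8 genes went from -0.41 to -0.25. A larger fold change of Chad in the soleus than in the TA was therefore not shown to differ between the muscles.

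**Figure D2:**
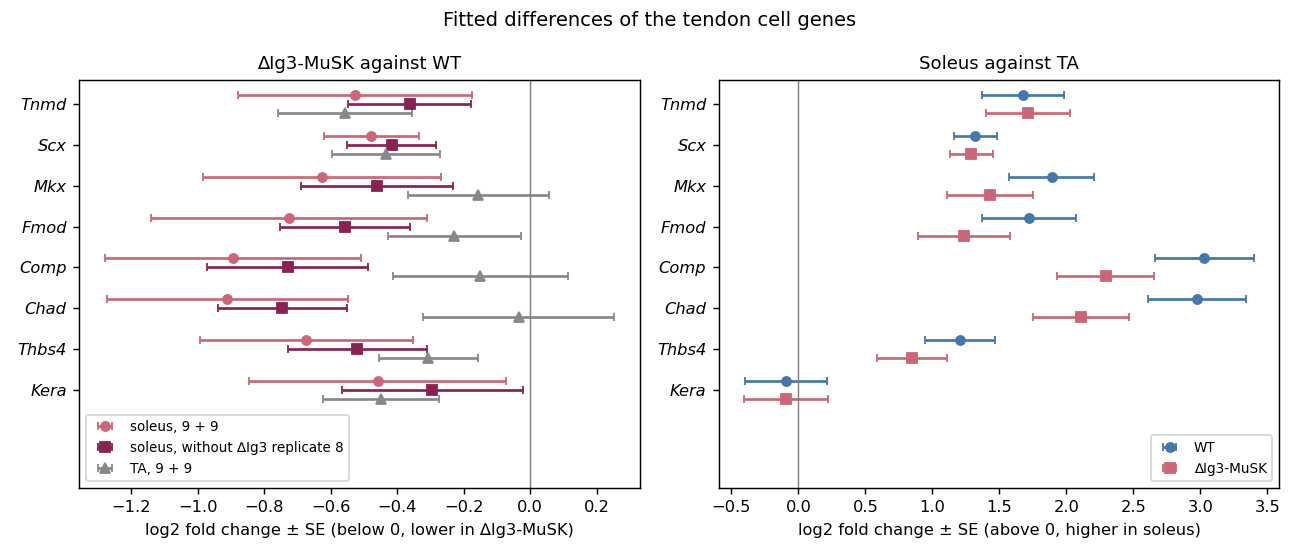
Log2 fold changes of the 8 tendon cell genes with their SE, ∆Ig3-MuSK against WT on the left and soleus against TA on the right. On the left the soleus values with all libraries lie between -0.91 and -0.46, those without replicate 8 lie nearer to 0 with shorter bars, and the TA values lie between -0.56 and -0.04; on the right every gene but Kera lies above 0 in both genotypes.

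Replicate 8 of the ∆Ig3-MuSK soleus held under 10% of the usual level of 7 of the 8 tendon genes. Against the median of the other 8 libraries of its group, Fmod stood at 1.23% (76 counts), Chad at 1.32% (10 counts), Tnmd at 1.67% (11 counts) and Comp at 2.42% (23 counts). Thbs4 stood at 9.61% (593 counts). Kera had 1 count, 0.6% of the median with an exact 95% Poisson interval of 0.0152% to 3.34% that covers counting error only. Mkx had 0 counts, where 3 counts would be 3.14% of the median and the exact 95% Poisson interval reaches 3.86%. Scx was the exception, at 61.9% of the median with 376 counts. Bop1, the gene around it, had 20.7 CPM in this library and a median of 18.7 CPM in the others.

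This low level was not that of most genes in the library. Of 15480 genes with a median of at least 1 CPM in the other 8 libraries, 26 (0.168%) stood under 10% of their median here, and 7 of the 26 were tendon genes named above. The remaining ones, named after their values were seen, included Col11a1, Col11a2, Col12a1 and Col2a1, fibrillar and fibril-associated collagen genes of cartilage and tendon. Col22a1, a collagen gene of the myotendinous junction, stood at 2.94% of its median. Cilp2 stood at 2.48%, Ptx4 at 1.72%, Col8a2 at 4.14% and Itgbl1 at 9.59%. Also among the 26 were Mmrn1 at 3.96%, Tigd4 at 5.52% and Prph at 9.4%, which are on none of the lists. By the same measure, ∆Ig3-MuSK soleus replicate 7 had 23 low genes (0.149%) and WT soleus replicate 6 had 19 (0.123%). In each of these libraries 0 tendon genes were among them. The broader collagen genes were less depleted, with Col1a1 at 27.6% and Col1a2 at 28.9%, and decorin (Dcn), made by most fibroblasts, at 56.1%.

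As lists, the tendon genes summed to 24.6 CPM in replicate 8 and to at least 246 CPM, with a median of 359 CPM, in the other 8 libraries. The tendon matrix list of 18 genes summed to 421 against 788 to 1390 CPM, with 16 of 18 genes under all other libraries. The adipocyte list (Adipoq, Plin1, Cfd, Cidec and Lep) moved with them, at 18.8 against 48.9 to 246 CPM, with 5 of 5 genes under all other libraries. The part of fat in the result was not tested. The cartilage and enthesis list was at 60.3% of the median, with 3 of 8 genes under all other libraries, and Sox9 within it was at 97.1%. The tendon regulators summed to 100% of the median, with 5 of 12 genes under all other libraries. The fibroblast list was at 65.0% of the median, at 627 against 675 to 1280 CPM. Muscle fibre genes were at 115.0%, endothelial genes at 119.0%, smooth muscle genes at 100% and Schwann cell genes at 169.0% of their medians, and leukocyte genes at 50.7%. The myotendinous list, which is made mostly of muscle fibre genes, stood at 115.0% although Col22a1 within it was at 2.94%. Musk had 10.5 CPM in this library, with 10.6 CPM as the median of the others.

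**Figure D3:**
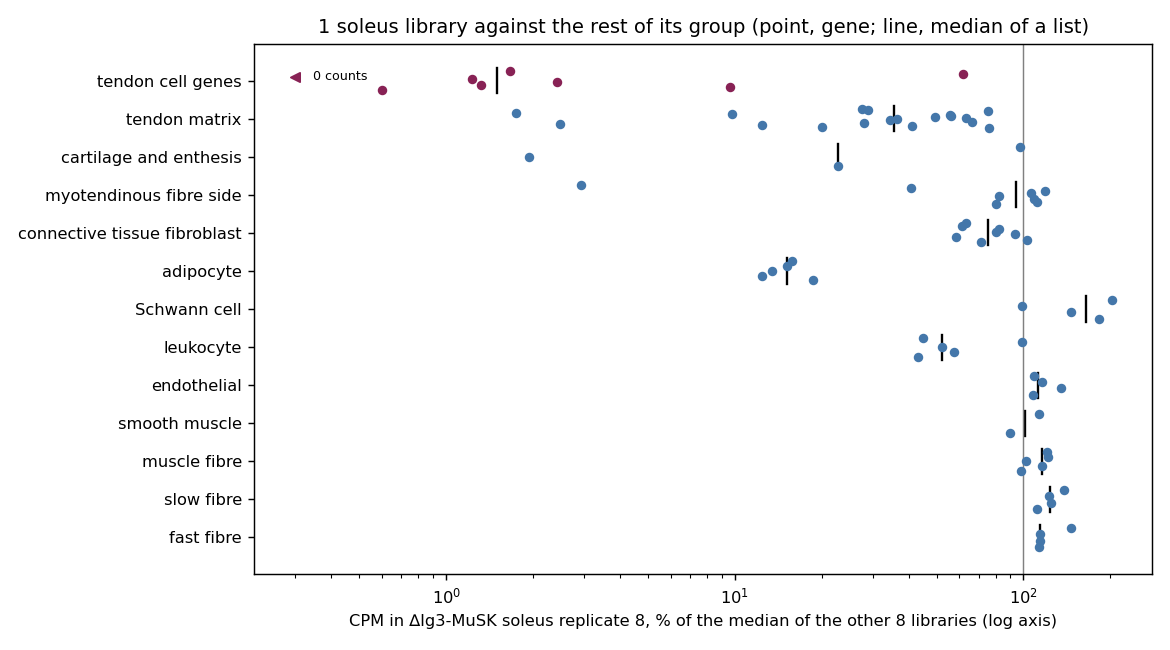
CPM of single genes in ∆Ig3-MuSK soleus replicate 8 as a percentage of the median of the other 8 libraries of the group, on a log axis, by gene list, for genes with a median of at least 1 CPM. Tendon cell genes lie at 0 to 9.61% except Scx at 61.9%, adipocyte genes sum to 13.7%, and muscle fibre, endothelial and smooth muscle genes lie near 100%.

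The RNA levels of the tendon genes also varied among the other libraries. Within WT soleus, the SD of log2 CPM was 0.50 for Tnmd, 0.33 for Scx, 0.53 for Mkx, 0.52 for Fmod, 0.62 for Comp, 0.52 for Chad, 0.54 for Thbs4 and 0.61 for Kera. The median SD of genes within 0.5 log2 CPM of each one's level was 0.10 to 0.19, and from 0.442% to 3.69% of these genes had a larger SD. Within WT TA the SDs were 0.30 for Tnmd, 0.38 for Scx, 0.30 for Mkx, 0.26 for Fmod, 0.49 for Comp, 0.49 for Chad, 0.31 for Thbs4 and 0.30 for Kera. Genes of like level had a median SD of 0.17 to 0.21 there, except 0.33 at the level of Mkx, whose own SD was smaller. The share of like-level genes with a larger SD in WT TA was 2.94% for Comp, 3.92% for Chad, 6.92% for Scx and 8.78% for Thbs4. It was 17.0% for Tnmd, 18.8% for Kera, 21.6% for Fmod and 60.4% for Mkx, so the spread stood out less than in WT soleus. Scx was the 1 gene of the 8 with a larger SD in WT TA than in WT soleus. In ∆Ig3-MuSK TA the SDs were 0.66 for Tnmd, 0.36 for Scx, 0.63 for Mkx, 0.68 for Fmod, 0.80 for Comp, 0.97 for Chad, 0.40 for Thbs4 and 0.50 for Kera. Replicates 1 and 3 of that group were the lowest and second lowest, in either order, for Tnmd, Mkx, Fmod, Comp, Chad and Thbs4. WT soleus replicate 8 was the highest of its group for 7 of 8 genes, ∆Ig3-MuSK soleus replicate 4 likewise for 7 of 8, and WT soleus replicates 2 and 9 were the lowest for 5 and 3 genes.

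The tendon genes varied together between soleus libraries. Tnmd was compared with the other 7 genes in each muscle, which makes 14 relations, on log2 CPM centred within genotype and with p-values from 100000 permutations within genotype adjusted over the 14. In the soleus (18 libraries) Pearson's r with Tnmd was 0.994 for Fmod (adjusted p = 2.8e-05) with a Spearman's rho of 0.901 (adjusted p = 8.4e-05), and 0.993 for Mkx (adjusted p = 2.8e-05) with a rho of 0.909 (adjusted p = 3.5e-05). The raw p of 1e-05 behind these r values is the smallest the permutations can give. For Comp r was 0.984 and rho 0.837, for Kera 0.98 and 0.886, for Thbs4 0.959 and 0.864, and for Chad 0.98 and 0.779, with adjusted permutation p-values of r of 0.000227 or less and of rho of 0.00361 or less. Scx followed Tnmd less closely, with r of 0.627 (adjusted permutation p = 0.00012) and rho of 0.69 (adjusted permutation p = 0.00021). Without ∆Ig3-MuSK soleus replicate 8, r lay between 0.755 (Scx) and 0.938 (Mkx), and without the 2 libraries farthest from the median of Tnmd it lay between 0.646 and 0.929.

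In the TA (18 libraries) the relations with Tnmd were looser. For Thbs4 r was 0.881 (adjusted permutation p = 0.000117) and rho 0.856 (adjusted permutation p = 0.00016), and for Kera r was 0.776 (adjusted permutation p = 0.000793) and rho 0.835 (adjusted permutation p = 0.00016). For Fmod, Chad, Mkx and Comp r was 0.846, 0.799, 0.765 and 0.754 and rho 0.742, 0.595, 0.606 and 0.633, with adjusted permutation p-values of r of 0.00515 or less and of rho of 0.017 or less. These rested in part on the 2 libraries farthest from the median, ∆Ig3-MuSK TA replicates 1 and 3, since without them r was 0.5 for Fmod, 0.342 for Chad, 0.351 for Mkx and 0.401 for Comp. For Thbs4 it was 0.858 and for Kera 0.792 without them. For Scx, r was 0.206 (adjusted permutation p = 0.432) and rho 0.179 (adjusted permutation p = 0.48) with all libraries. Without the same 2 libraries r was 0.536 for Scx, so a low r for Scx in the TA also depended on them.

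**Figure D4:**
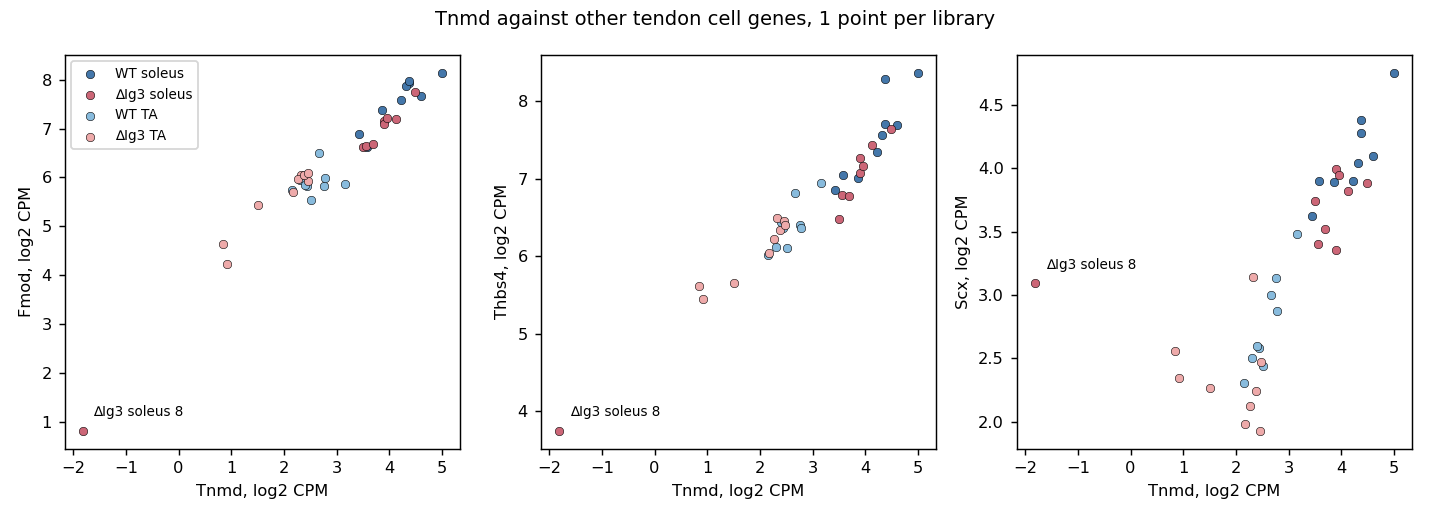
Log2 CPM of Tnmd against that of Fmod, Thbs4 and Scx, with 1 point per library and colour for the 4 groups. Fmod and Thbs4 follow Tnmd down to ∆Ig3-MuSK soleus replicate 8 at the lower left, while Scx in that library stays near the lower end of the soleus range.

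Scx was set beside Bop1, and Chad beside Acsf2, in both muscles, which makes 4 relations over 18 libraries each. In the TA, Scx and Bop1 had an r of 0.594 (permutation p = 0.00967, adjusted p = 0.0387) and a rho of 0.664 (permutation p = 0.00341, adjusted p = 0.0136), and r was 0.598 without the 2 farthest libraries. In the soleus r was -0.206 (permutation p = 0.426, adjusted p = 0.568) and rho -0.187 (permutation p = 0.469, adjusted p = 0.625). Chad and Acsf2 had an r of -0.069 in the soleus and 0.242 in the TA, with adjusted permutation p-values of 0.757 and 0.568, and a rho of -0.082 and 0.199, with adjusted permutation p-values of 0.722 and 0.625. The part of reads from the surrounding genes in the levels of Scx was not tested.

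For 16 label numbers there was both a TA and a soleus library, and the level of each gene in one was set beside that in the other, which makes 8 relations. Chad had an r of -0.519 (permutation p = 0.0318, adjusted p = 0.254) and a rho of -0.606 (permutation p = 0.0157, adjusted p = 0.126), and r was -0.516 without the 2 farthest pairs. The r of the other 7 genes ran from -0.361 for Fmod to -0.023 for Tnmd, with adjusted permutation p-values of 0.6 or more for r and of 0.2 or more for rho. A library rich in tendon RNA in one muscle was thus not shown to go with one rich or poor in it in the other.

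Genes outside the 8 were ranked by how closely they followed the mean of the centred log2 CPM of the 8, as the mean over the 4 groups of Pearson's r within a group, as a description over 9 libraries each. Of 18923 genes, the first was Itgbl1, an integrin beta-like secreted protein, with a mean r of 0.926. Cpxm2 followed at 0.901, Ptx4 at 0.88, Serpinf1 at 0.861, Col8a2 and Cilp2 at 0.852, Thbs1 at 0.847, Pamr1 at 0.846, Prelp at 0.844 and Lox, the collagen cross-linking enzyme lysyl oxidase, at 0.838. Without ∆Ig3-MuSK soleus replicate 8, 7 of these stayed among the first 10, and Prelp, Lox and Thbs1 ranked 11, 17 and 25. With all libraries, r of the first 10 genes ran from 0.45 (Cilp2) to 0.902 (Pamr1) in WT TA and from 0.72 (Thbs1) to 0.994 (Cpxm2) in WT soleus. Pairs among the 8 tendon genes had a median r of 0.416 in WT TA and 0.871 in WT soleus. Pairs with Scx had a lower median r than pairs without it. These were 0.823 against 0.888 in WT soleus and 0.37 against 0.422 in WT TA. In ∆Ig3-MuSK they were 0.488 against 0.921 in the soleus without replicate 8, and -0.0894 against 0.898 in the TA with all libraries.

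Of the wider tendon matrix list of 18 genes, 1 passed the genotype test in the soleus, against 0.952% of all genes called in either direction, and 0 did in the TA, against 0.0149%. It was Thbs1, a matrix glycoprotein of the thrombospondin family, made by many cell types. Thbs1 ran from 26.6 through 41.6 to 125.0 CPM in WT soleus and from 4.31 through 21.5 to 30.7 CPM in ∆Ig3-MuSK soleus, with a log2 fold change of -1.42 (SE 0.32, adjusted p = 0.0378 by edgeR's quasi-likelihood test). The call was close to the threshold: leaving out 1 library at a time kept it in 7 of 18 cases and lost it in 11, with an adjusted p of 0.0175 to 0.0813, and without replicate 8 the log2 fold change was -1.29 (adjusted p = 0.047). With robust estimation of the spread, its adjusted p was 0.0623. The median over the list was -0.58 in the soleus and -0.06 in the TA. In the soleus, 0 of 10 tested tendon regulators, 0 of 5 cartilage and enthesis genes, 0 of 8 myotendinous genes and 0 of 8 connective tissue fibroblast genes passed. In the TA, likewise, 0 of 9, 0 of 4, 0 of 8 and 0 of 8 passed. The summed adipocyte markers had a median of 63.1 CPM in WT soleus and 134 CPM in ∆Ig3-MuSK soleus, and 0 of 5 passed.

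Between the muscles in WT, the wider lists held calls in both directions, against 30.2% of all genes called higher and 27.3% called lower in the soleus. Of the tendon matrix list, 13 of 18 were higher in the soleus and 1 lower, and Bgn (biglycan, a collagen-binding proteoglycan), Prg4 (lubricin) and Thbs1 had log2 fold changes of 1.76, 1.66 and 2.48. Of the cartilage and enthesis list, 5 of 6 tested were higher, with Col2a1 at 3.54, Sox9, the chondrocyte transcription factor, at 2.27 and Matn4 at 1.93. Of the tendon regulators, 8 of 11 were higher and 3 lower, with the growth factor genes Tgfb1 at 1.06 and Tgfb3 at 0.92, while the homeobox gene Six2 fell by 1.39 on the log2 scale. Of the myotendinous list 5 of 8 were higher, with Nrap at 1.66, Nes at 1.24 and Itgb1 at 0.45. Of the fibroblast list 4 of 8 were higher and 1 lower, with Col15a1 at 0.74, Cd34 at 0.39 and Smoc2 at -0.66. The adipocyte list was also higher in the soleus, in 5 of 5 genes, with a summed median of 63.1 CPM against 32.4 CPM in the TA.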

How the data were processed

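Whole TA and soleus muscle was kept in RNAlater, total RNA was extracted with the RNeasy Fibrous Tissue Kit and libraries were made with the NEBNext Ultra kit, which keeps no strand. The submitters' processing notes name Trimmomatic, FastQC, GSNAP, SAMtools and HTSeq with GRCm38. The annotation release and counting mode are not given in the sources used here. The authors deposited whole-number counts per Ensembl ID, without normalization, in 1 table per muscle, and 0 columns of other samples were present.

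Genes were mapped to symbols (51633 of 51912 IDs), and coordinates come from GENCODE for GRCm38. In R 4.3.3, edgeR 4.0.16 was used with filterByExpr (minimum count 10), TMM factors, glmQLFit and glmQLFTest. Genotypes were fitted within each muscle (18 libraries; 19439 genes in the soleus and 20075 in the TA), and muscles and the interaction in 1 fit over 36 libraries (20841 genes). A call needed an adjusted p under 0.05 (Benjamini-Hochberg, over all genes tested) and at least a 1.2-fold change. Log2 CPM used a prior count of 2. The fits were tested on simulated data. DESeq2 1.42.0, limma 3.58.1 (voom), other scalings and filters, a replicate block and leaving out each library were alternatives.

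The members and lists were chosen with earlier results of these data known. The genes named are the 8 members, list genes called between genotypes, 3 per list with the smallest adjusted p between muscles in WT, genes that overlap a member, the 10 most like the 8, and Musk. Groups and replicate numbers come from the labels. Each muscle is described as coming from its own animal, while 8 WT and 8 ∆Ig3-MuSK label numbers appear for both muscles. If a group's libraries are not separate animals, p-values measure only the spread between them.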

Additional observations from a re-analysis of the deposited data

Results flagged for a closer look

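Each gene was checked in each group of 9 libraries for a lowest or highest library set apart from the rest, by the gap to its neighbour as a share of the group's range on log2 CPM (Dixon's test for 9 values). Chance flags about 1 in 20 groups, and 8 of 32 combinations of gene and group passed. In 7 of them the library was ∆Ig3-MuSK soleus replicate 8, the lowest of its group. The gap took 0.844 of the range for Tnmd, 0.772 for Mkx, 0.837 for Fmod, 0.8 for Comp, 0.832 for Chad, 0.701 for Thbs4 and 0.72 for Kera. Scx in the same library did not pass. The other was Fmod in WT TA, where replicate 9 was the highest, with a gap of 0.542 of the range. The 7 flags of 1 library are not independent, since the genes varied together.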

How the results depend on the processing

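Of the counts of tendon genes called, that for genotype in the soleus changed. It was 0 with edgeR and 1 (Scx) with DESeq2, with limma-voom and without WT soleus replicate 2 (adjusted p = 0.0428), so that leaving out 1 library at a time gave 0 to 1. The median log2 fold change of the 8 genes there was -0.98 with limma-voom. The counts stayed at 0 for genotype in the TA and for the interaction, and at 7 for soleus against TA in WT under all alternatives but a minimum of 10 counts in every library, which tested 6 genes and called 6. In ∆Ig3-MuSK the count was 6 with that filter and with limma-voom, and leaving out 1 library gave 7. No log2 fold change that turned direction was past the threshold. In the TA, Chad was at 0.14 with limma-voom, 0.24 without ∆Ig3-MuSK replicates 1 and 3, and -0.12 to 0.09 when 1 library was left out. Comp was at 0.08 and Mkx at 0.05 without the same pair, and Comp at -0.26 to 0.04 when 1 library was left out. The interaction of Kera was -0.45 with limma-voom and -0.2 to 0.16 when 1 library was left out, that of Tnmd was -0.35 and -0.08 to 0.2, and that of Scx was -0.14 to 0.1 when 1 library was left out. Kera between muscles reached 0.01 in WT, with limma-voom and without WT soleus replicate 2, and in ∆Ig3-MuSK it ran from -0.3 (without soleus replicate 4) to 0.07 (without soleus replicate 8) when 1 library was left out. The median SD of log2 CPM in ∆Ig3-MuSK soleus was 0.39 without replicate 8, and r of Tnmd between muscles was 0.005 without the 2 farthest pairs. The cause of these changes was not tested, beyond the fewer genes or libraries in each. Depth limits Mkx and Kera in replicate 8, with 0 and 1 counts.

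With the replicate number as a block, 0 of 8 genes were called between genotypes in each muscle. Libraries with the same replicate number deviated together (r over 0.1) in 3 of 9 pairs in the soleus and 2 of 9 in the TA, and TA and soleus libraries with the same label number in 10 of 16. For the label number, r ran from -0.00106 through a median of 0.125 to 0.35. For the replicate number it ran from -0.329 through 0.00798 to 0.357 among soleus pairs. Among TA pairs it ran from -0.136 through -0.0323 to 0.454. A count of pairs over 0.1 cannot decide whether a shared label number means a shared animal, and this was not tested further. The main fits treated all libraries as separate. With the label number as a block in limma-voom, the count for soleus against TA was 7 in WT and 5 in ∆Ig3-MuSK, where Fmod was at 0.84 and Mkx at 0.95, and the interaction was -0.46 for Kera and -0.22 for Tnmd.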

Other observations

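Other cell type markers showed 1 gene called between genotypes in the soleus, Acta2, the smooth muscle actin gene. It ran from 42.1 through 50.8 to 56.7 CPM in WT soleus and from 28.1 through 39.6 to 48.0 CPM in ∆Ig3-MuSK soleus, with a log2 fold change of -0.38 (SE 0.09, adjusted p = 0.0496 by edgeR's quasi-likelihood test). It was called in 3 of 18 fits that left out 1 library, with adjusted p-values of 0.0227 to 0.1. With all libraries, edgeR's quasi-likelihood test did not call it with RLE scaling (adjusted p = 0.0511) or without the low-count filter (adjusted p = 0.0556). Robust estimation did not call it either (adjusted p = 0.0567). The other settings with all libraries called it, among them DESeq2 (adjusted p = 0.00938) and limma-voom (adjusted p = 0.0218). Acta2 was named after its value was seen.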
